A study of Mus musculus with 13 samples.

Results

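Interfollicular basal keratinocytes are the cells of the epidermis between the hair follicles that sit on the basement membrane. They were taken here from 13 droplet single-cell RNA-seq libraries of mouse back skin as the cells that passed a rule on their unique molecular identifiers (UMIs, each counting 1 captured RNA molecule). A cell entered when Krt5 plus Krt14, the keratin pair of the basal layer, made up at least 20 of every 10000 UMIs and were at least 2 times Krt1 plus Krt10, the keratin pair of the layer above. It also needed a UMI of at least 2 of Krt15, Postn, Igfbp2, Cxcl14, Wnt4 and Slc1a3, no UMI of the hair follicle genes Sox9, Lhx2, Lgr5, Shh and Krt28, and at P0 at most 1 UMI of the fibroblast gene Dcn. The rule chose 5111 cells of 97363 barcodes, of which 86507 passed the quality limits. Because measured values chose the cells, the levels of these genes and the number of cells per library are a description and carry no test.

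The mice were C57BL/6, wild type (WT) or Grhl3-/-. Grhl3 encodes a grainyhead-like transcription factor that is needed for the skin barrier and for closure of the neural tube. Whole back skin was used at embryonic days E14.5 and E16.5 and epidermis split off by overnight dispase at P0, the day of birth, with 2 libraries per age and genotype made with version 2 chemistry. The remaining library was P0 WT epidermis labelled as version 1 chemistry. It entered no test. The Grhl3-/- animals were germline mutants with spina bifida, so that the loss was not limited to skin, and in both genotypes skin was taken at an anterior site away from that defect. The study's methods describe the 2 libraries of a group as biological replicates, 1 male and 1 female, from littermates. The p-values below measure the spread between libraries, and cells were never treated as replicates.

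Basal keratinocytes are the dividing cells of the epidermis. They hold on to the basement membrane through hemidesmosomes, in which integrin α6β4 and collagen XVII connect laminin-332 outside the cell to plectin and dystonin (Dst, also called BPAG1) and the keratin filaments inside. The transcription factor p63 (Trp63) maintains them. Cells that leave the layer lower the basal keratins and divide less, and the paper reports proliferating transition cells at E14.5.

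The number of chosen cells ranged from 163 to 894 per library, with a median of 6015.5 to 11425 UMIs per cell. The step on hair follicle genes kept 83.7 to 87.3% of the cells that reached it at E14.5 and 46.1 to 68.7% at E16.5. At P0 it kept 10.4 and 9.06% in the tested WT libraries and 26.6 and 13.2% in Grhl3-/-. The step on Dcn then kept 212 of 370 and 163 of 282 WT cells, and 604 of 1363 and 210 of 423 Grhl3-/- cells. The paper lists Dcn among the markers of a basal population at P0. The P0 genotypes were thus filtered to different degrees, and the part of this in the differences was not tested. Free RNA may bear on the follicle step, and its part was not tested. Immune cells and melanocytes, which should lack these genes, held such a UMI in 1.82 to 3.72% of cells in the embryos and in 33.7 to 50.9% at P0. The basal cells described here at P0 are therefore the minority without a follicle UMI. They were also shallower than the cells this step left out, with a median of 6015.5 to 7258.5 UMIs against 8291.5 to 11190 in the tested P0 libraries. In the sentences below, background means the level in the cells with immune or melanocyte UMIs, as the mean of the libraries of a group. Their median depth was 6341.5 to 11589 UMIs in the embryos and 6333.5 to 8188 at P0, and some of the genes may be used by these cells themselves. Krt15 was found in 5.97 to 27.6% of them in the embryos and in 53.7 to 81.8% at P0. P0 background levels may thus include RNA of keratinocytes in this class. Pairs of tested libraries shared 52 to 131 cell barcodes, and over all 66 pairs only 7 shared barcodes belonged to chosen cells in both. Xist and Y-linked RNAs differed between groups. E14.5 WT replicate 1 and both E14.5 Grhl3-/- libraries had Y-linked RNA, E14.5 WT replicate 2 and both E16.5 WT libraries had Xist, and all P0 libraries had Y-linked RNA without Xist. E16.5 Grhl3-/- replicate 2 had Xist, whereas replicate 1 held 15 chosen cells with Xist only and 108 with Y-linked RNA only. Sex therefore cannot be told apart from age between E16.5 and P0 in WT. It is also unbalanced between genotypes at E14.5 and at E16.5, and between E14.5 and E16.5 in WT, so that the comparisons at and between these ages, the interaction included, carry this limit.

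The label was checked against 6 basal genes that the rule did not use, the integrin subunits Itga6, Itgb4 and Itga3, Col17a1, Dst and Trp63. At both embryonic ages all 6 were above background in every library. Levels are given as CPM, the UMIs of a gene per 1000000 UMIs of the summed members of a library. Trp63 was at 114 to 143 CPM in the 4 E14.5 libraries and at 200 to 220 in the 4 E16.5 libraries, against a background of at most 5.27. At P0 the background was higher, at 144 in WT and 79.6 in Grhl3-/-. Trp63 in members was then at 350 and 444 CPM in WT and 202 and 151 in Grhl3-/-, still above it. The chosen cells thus carry genes of the basal layer beyond those that selected them. The check does not tell interfollicular from follicle basal cells, which may use these genes too. Hair follicle genes summed to 37.2 to 130 CPM in the embryonic members and to 302.5 to 886 in the tested P0 members. In the version 1 library they summed to 1230. The fibroblast gene Dcn was present as well. It was found in 80.7 to 93.8% of the embryonic members, at 499 to 1148 CPM. In background cells it was found in 34.2 to 46.9%, at 98.9 to 309 CPM. Whether the members express Dcn or hold RNA of fibroblasts was not tested.

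Most members sat well inside the keratin limit. The median of Krt5 plus Krt14 was 49.0 to 52.1 UMIs per 10000 at E14.5, 166 to 207 at E16.5 and 124 to 195 in the tested P0 libraries. Within 5 UMIs per 10000 of the keratin limit lay 2 to 17 members and 1 to 15 cells left out per library. Between 16 and 293 cells per library were left out for exactly 1 follicle UMI, and in every library but the 2 of E14.5 WT these outnumbered the cells on both sides of the keratin limit. Exactly 2 markers were held by 40 of 212 and 21 of 163 P0 WT members and by 21 of 604 and 39 of 210 Grhl3-/- members. The 1 Dcn UMI allowed at P0 was held by 33.5 and 28.2% of WT and 34.3 and 29.5% of Grhl3-/- members. Krt15, a keratin of undifferentiated basal cells, was at 2728 to 3122 CPM at E14.5, 3516 to 5173 at E16.5 and 5311 to 10280 in the tested P0 libraries. Postn, an adhesion protein of the matrix, was at 196 to 305 at E14.5, 283 to 353 at E16.5, 142 and 147 in P0 WT and 356 and 196 in P0 Grhl3-/- members.

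**Figure D1:**
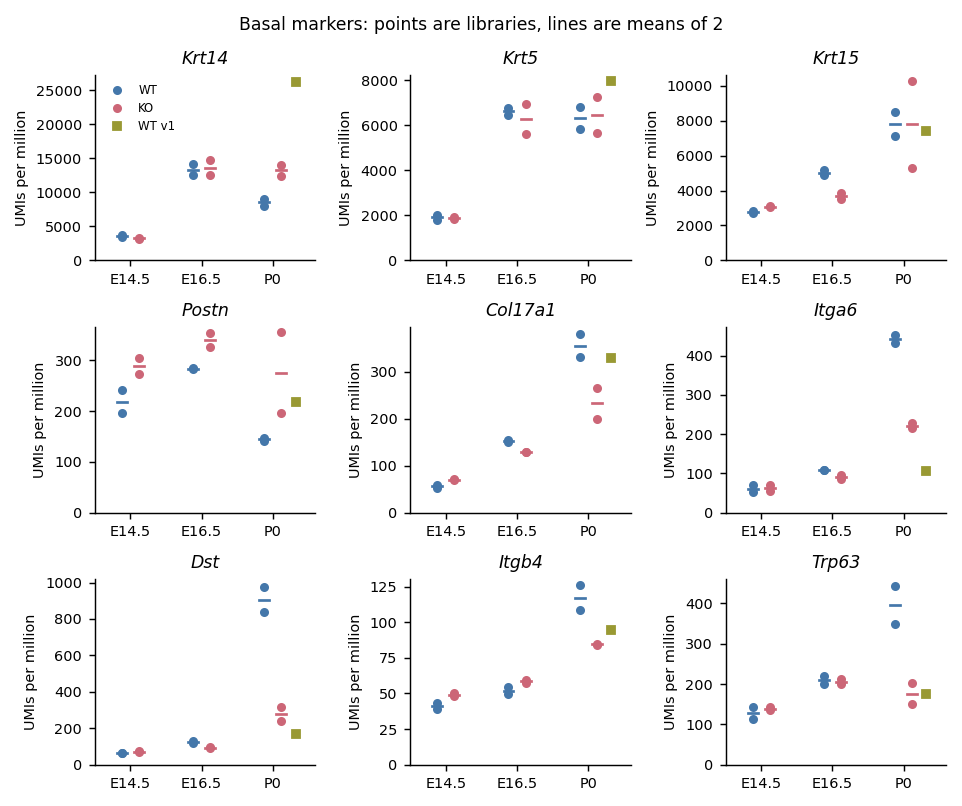
Levels of rule genes (Krt14, Krt5, Krt15, Postn) and of basal genes the rule did not use, in CPM, by age and genotype. Points are libraries, short lines are means of 2 libraries and squares are the version 1 library. Dst rose from 64.0 and 64.5 in E14.5 WT to 838 and 974 in P0 WT and stood at 315 and 238 in P0 Grhl3-/-.

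The earliest comparison asks how basal cells of normal skin change from E14.5, when stratification starts, to E16.5. In the WT members 1729 of 10703 genes (16.2%) passed edgeR's quasi-likelihood test with Benjamini-Hochberg adjustment at 0.05, 896 higher (8.37%) and 833 lower (7.78%) at E16.5. The anchoring genes rose. Of 10 hemidesmosome and integrin genes, 6 were higher and none lower, with a median log2 change of 0.46 against 0.0031 over all genes. Of 14 basement membrane genes, 6 were higher and 1 lower (median 0.53), the 6 including Hspg2 and Col4a1, which fibroblasts and vessel cells also use. Genes of other cell types and stress genes moved with age too. Of 7 fibroblast genes 5 were higher (median 1.28), with sums of 1512 and 1570 CPM at E14.5 and 2924 and 2595 at E16.5, of 4 muscle genes 2 were higher and of 16 dissociation stress genes 8 were higher, none of these lists having a lower gene. Their part in the differences was not tested.

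Col17a1, the collagen of the hemidesmosome, was at 53.1 and 58.5 CPM at E14.5 and at 149 and 154 at E16.5 (log2 change 1.53 ± 0.15 SE, adjusted p = 6.1e-06). Col7a1, which forms the anchoring fibrils beneath, was at 13.01 and 13.4 and then at 85.2 and 93.1 (2.84 ± 0.23, 1.6e-06). Lamb3, a chain of laminin-332, was at 27.1 and 22.6 and then at 94.8 and 92.3 (2.02 ± 0.15, 7.1e-07). For all of them the E16.5 libraries lay above the E14.5 libraries with no overlap, and the background stayed at or below 16.9. The number of called genes fell to 677 without E14.5 WT replicate 2, 999 without E14.5 WT replicate 1, 842 without E16.5 WT replicate 1 and 834 without E16.5 WT replicate 2. Dst and Itga6 rose less, by 1.05 ± 0.15 (adjusted p = 0.00026) and 0.94 ± 0.14 (adjusted p = 0.00031).

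The largest increases under the naming rule included stefin genes and Ly6d. Stfa3, a stefin that inhibits cathepsins, was at 30.4 and 7.76 CPM at E14.5 and at 1708 and 1702 at E16.5 (log2 change 6.67 ± 0.40, adjusted p = 7.0e-08). It had a UMI in 637 of 678 and 854 of 894 E16.5 members, against 22 of 172 and 19 of 242 at E14.5. Stfa3, BC100530 and BC117090 are near-identical copies, so their counts are uncertain one by one. The surface protein gene Ly6d followed, at 3.25 and 2.82 and then at 241 and 212 (6.32 ± 0.31, 1.3e-08), with a background of 64.5 at E16.5. Of 18 early differentiation genes 14 were higher and none lower (median 1.37). Krtdap, a secreted peptide of differentiating keratinocytes, went from 232 and 122 to 1788 and 1760 (3.42 ± 0.27, 1.1e-06) and Calm4, an epidermal calcium sensor, from 22.2 and 9.52 to 316 and 380 (4.63 ± 0.30, 1.4e-07). Both stood well above their E16.5 background of 173 and 125.

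Genes of the cornified envelope must be read against free RNA at E16.5. Lor was at 156 and 209 CPM in the E16.5 WT members and at 265 in the background, Hrnr at 46.4 and 43.2 against 64.2. At or below the background, such values are not read as expression in basal cells, although 5 of 8 envelope genes passed the test between the ages. The list's median of 6.32 became 3.71 with the genes absent from 1 group set at their lower bound.

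Among genes that fell, the connexin pair Gjb6 and Gjb2 stood out. These proteins form gap junction channels between keratinocytes. Gjb6 was at 182 and 218 CPM at E14.5 and at 11.01 and 16.4 at E16.5 (log2 change -3.75 ± 0.24, adjusted p = 1.2e-07), with a background of 0.818 and 0.885. Gjb2 was at 288 and 320 and then at 18.1 and 24.3 (-3.74 ± 0.40, 1.6e-05). Gjb6 was found in 127 of 172 and 192 of 242 members at E14.5, and in 63 of 678 and 118 of 894 at E16.5. The change therefore spread over most cells. The 250 bases before the Gjb6 start site on the minus strand (chr14:57133612-57133861, GRCm38.p6, RefSeq) are shown because Gjb6 had the largest fall under the rule for naming genes. The capitals mark the letters AACCNGTT, the core that grainyhead-like factors bind, searched on both strands.
Gjb6: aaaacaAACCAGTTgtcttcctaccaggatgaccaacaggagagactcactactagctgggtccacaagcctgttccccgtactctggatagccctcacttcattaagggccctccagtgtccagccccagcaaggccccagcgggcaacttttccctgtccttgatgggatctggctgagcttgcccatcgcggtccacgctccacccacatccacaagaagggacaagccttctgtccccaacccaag
The match begins 244 bases before the start site, and 2.09% of 32851 RefSeq promoter windows of 250 bases before to 50 after a start hold these letters on either strand. It is a match of letters and not a measured binding site. In Grhl3-/- members Gjb6 was not called different from WT at E14.5.

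Mdk, Hmga2 and Cldn6 were lower at E16.5 as well. Mdk, the heparin-binding growth factor midkine, was at 277 and 323 CPM and then at 32.4 and 33.1 (log2 change -3.10 ± 0.16, adjusted p = 2.1e-08). Hmga2, an architectural chromatin protein of immature cells, fell by 1.99 ± 0.19 (adjusted p = 6.8e-06). Cldn6, a claudin of early epithelia, had 99 UMIs at E14.5 and 3 at E16.5, a ratio of 104 after correction for total UMIs (95% counting interval 34.7 to 515). Of 15 hypoxia and glycolysis genes 11 were lower and none higher (median -0.85). Cdkn1a, the cell-cycle inhibitor p21, rose by 2.94 ± 0.29 (adjusted p = 6.8e-06), but its background of 81.9 and 125 exceeded the members' 4.88 to 45.9, so its level there is not read as expression. The background cells may use Cdkn1a themselves, so that the comparison does not decide whether basal cells express it.

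The comparison from E16.5 to P0 in WT gave 5461 called genes of 10703 (51.0%), 2777 higher (25.9%) and 2684 lower (25.1%). Age cannot be told apart here from whole skin against epidermis, the overnight dispase step and sex. RNA of fibroblast genes fell with it: the 7 genes summed to 1512 to 2924 CPM in embryonic members and to 251 to 486 at P0. All 7 were lower at P0, where the rule itself left out cells with more than 1 Dcn UMI, so that the choice of cells bears on this fall. Of 6 red cell genes 4 were lower and of 4 muscle genes all 4, whereas all 4 melanocyte genes, both Schwann cell genes and 3 of 4 hair follicle genes were higher. The melanocyte genes summed to 4.088 and 3.314 CPM in the E16.5 WT members and to 1102 and 744 at P0. The part of these RNAs in the differences was not tested. Genes such as Dlk1, Twist2, Crabp1 and Mest, 4 of the 5 largest falls under the naming rule, had at E16.5 a background of 479, 86.9, 62.3 and 57.7 CPM. The members held less, and the 4 genes are therefore not described further.

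The hemidesmosome genes rose again, with 7 of 10 higher and 1 lower (median 1.20). Dst went from 122 and 128 to 838 and 974 CPM (log2 change 2.86 ± 0.14, adjusted p = 5.7e-09), Itga6 from 109 and 110 to 432 and 453 (adjusted p = 3.4e-08). The P0 background was 306 for Dst and 92.3 for Itga6, below the members in both cases. Col17a1 rose by 1.23 ± 0.13 (adjusted p = 4.1e-06). With each cell counted once per gene it rose by 0.20 (edgeR adjusted p = 0.10). Of 18 junction genes 10 were higher and 3 lower. Cldn1, the barrier-forming claudin, went from 22.2 and 21.1 to 121 and 147 (2.63 ± 0.14, 6.8e-09), above a background of 33.7.

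Cell division genes fell. All 20 S phase genes and 14 of 20 G2/M genes were lower at P0, none was higher, with medians of -2.09 and -1.32. The S genes summed to 1594 and 1718 CPM at E16.5 and to 423 and 322 at P0. In the version 1 P0 library, which entered no test, they summed to 1165. Rrm2, a subunit of ribonucleotide reductase, was at 125 and 138 CPM and then at 12.1 and 10.5 (log2 change -3.53 ± 0.27, adjusted p = 1.6e-07). Plk1, a mitotic kinase, was at 56.0 and 45.1 and then at 12.7 in both libraries (-1.99 ± 0.30, 8.2e-05). Of 16 genes in a list of chromatin proteins and the RNA-binding proteins Igf2bp1, Igf2bp2 and Igf2bp3, 13 were lower (median -1.42), Igf2bp1 and Igf2bp2 among them. Of 13 imprinted growth genes 8 were lower and 2, Peg3 and H19, higher. Cdkn1c, one of the lower genes, was at 313 and 318 in the E16.5 members against a background of 360.

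Of 19 Wnt effectors and inhibitors 4 were higher and 6 lower, near the 25.9 and 25.1% over all genes. Lef1, a nuclear mediator of the pathway, was at 159 and 163 CPM at E16.5 and at 20.6 and 11.95 at P0 (log2 change -3.28 ± 0.34, adjusted p = 3.2e-06). The E16.5 level lay above its background of 11.8 and the P0 level below its background of 29.3. Axin2, a feedback inhibitor and common reporter of the pathway, was higher instead, at 26.1 and 27.9 and then at 90.9 and 52.0 (1.41 ± 0.20, 4.7e-05), but its P0 background was 56.7.

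Glucocorticoid-responsive genes rose, 10 of 12 higher and 1 lower (median 2.34). Sgk1, a kinase induced by glucocorticoids, went from 2.99 and 4.02 CPM to 130 and 136 (log2 change 5.21 ± 0.43, adjusted p = 3.7e-07), with a P0 background of 61.1. Tsc22d3, which encodes the glucocorticoid-induced protein GILZ, went from 14.3 and 15.1 to 231 and 411 (4.44 ± 0.24, 7.8e-09), while the background went from 154 to 229. The Notch target Hes1 went from 47.3 and 50.8 to 303 and 146 (2.20 ± 0.27, 1.5e-05) and its background from 46.1 to 201.

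Of the 5 largest rises under the naming rule, those of Cyp2g1, Elovl4 and Scd1 were carried by few cells. Cyp2g1, an olfactory-type cytochrome P450, had no UMI in the 678 and 894 E16.5 WT members and 1130 UMIs at P0, at least 1815-fold higher against a floor of 3 UMIs over the group. Elovl4, which elongates the very long fatty acids of barrier lipids, went from 7.23 and 5.68 to 231 and 368 CPM (log2 change 5.54 ± 0.24, adjusted p = 1.1e-09). Scd1, a fatty acid desaturase of sebaceous cells, went from 2.52 and 3.31 to 236 and 260 (6.37 ± 0.41, 3.8e-08). In the P0 WT libraries the 5 cells richest in each gene held 81.4 and 97.2% of the Cyp2g1 UMIs, 95.5 and 98.1% of those of Elovl4 and 84.6 and 95.1% of those of Scd1. Elovl4 had a UMI in 21 of 212 and 14 of 163 members, shares of 9.91 and 8.59%, against 11.04 and 8.51% of background cells. The group means of these genes therefore describe a handful of cells.

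Cycling members were counted next. Each cell was thinned to 2000 UMIs at random so that depth could not set the call, and was called G2/M-like with at least 3 of 20 G2/M genes, otherwise S-like with at least 3 of 20 S genes. At E14.5 73.8 and 78.9% of WT members and 73.5 and 70.7% of Grhl3-/- members were cycling. At E16.5 the shares were 64.7 and 61.7% in WT and 72.0 and 62.9% in Grhl3-/-. At P0 they were 27.4 and 16.6% in WT and 28.6 and 49.0% in Grhl3-/-, and the version 1 library had 38.0%. The share was thus high and similar between libraries in the embryos and lower and more spread at P0. Exact 95% binomial intervals, which cover counting error only, ran from 66.6 to 80.2% for E14.5 WT replicate 1, from 21.5 to 33.9% and from 11.2 to 23.2% for P0 WT, and from 25.1 to 32.4% and from 42.1 to 56.0% for P0 Grhl3-/-. Group means were 76.4 ± 3.60% (SD, n = 2) in WT and 72.1 ± 1.99% in Grhl3-/- at E14.5 and 22.0 ± 7.63% and 38.8 ± 14.4% at P0.

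**Figure D2:**
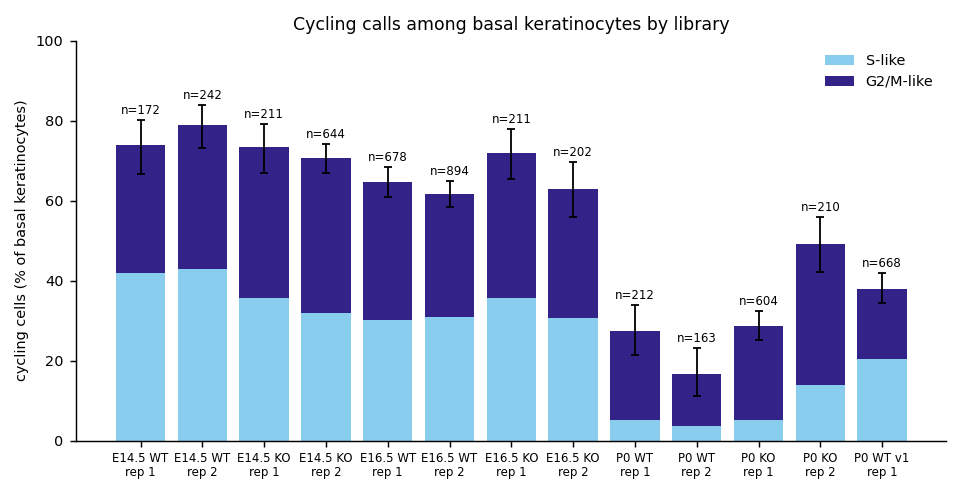
Percentage of members called S-like or G2/M-like after thinning to 2000 UMIs, per library, with exact 95% binomial intervals. The 8 embryonic libraries sit between 61.7 and 78.9%, and the 4 tested P0 libraries between 16.6 and 49.0%.

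From E14.5 to P0 the share fell by 43.8 percentage points. An exact permutation test of age within genotype gave two-sided p = 0.0556, the smallest that 36 arrangements allow, so this design could not pass 0.05. Between genotypes the share was 5.59 points higher in Grhl3-/- over the 3 ages, with p = 0.315 in an exact two-sided permutation test of genotype within age. It was 2.19 points without P0 Grhl3-/- replicate 2 (exact permutation p = 0.546) and 8.99 without P0 Grhl3-/- replicate 1 (exact permutation p = 0.25). The differences by age were -4.33 points at E14.5, 4.21 at E16.5 and 16.9 at P0. At P0 both Grhl3-/- libraries lay above both tested WT libraries, but the version 1 WT library lay above Grhl3-/- replicate 1, and the intervals of Grhl3-/- replicate 1 and WT replicate 1 overlapped over most of their length. The order of these last libraries turned with the setting. Grhl3-/- replicate 1 was at 36.3% and WT replicate 1 at 39.6% when 2 genes sufficed for a call, at 32.3 and 34.0% with 3000 UMIs per cell, at 26.9 and 27.8% with mitochondrial UMIs limited to 5%, and at 28.5 and 29.7% when 3 of the 6 marker genes were required.

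The difference between genotypes was 21.2 points larger at P0 than at E14.5 (exact permutation p = 0.0556, the smallest that 36 arrangements allow). P0 Grhl3-/- replicate 2, at 49.0% against 28.6% in replicate 1, carried a large part of it. By phase, 22.2 and 12.9% of P0 WT members were G2/M-like and 5.19 and 3.68% S-like, against 23.5 and 35.2% and 5.13 and 13.8% in Grhl3-/-. In the version 1 WT library 17.7% were G2/M-like and 20.4% S-like. In cells that had moved up to the spinous layer the cycling share was 1.501 to 8.81% in the tested P0 libraries and 17.5 to 51.0% in the embryos. Background cells gave 38.1 to 52.9% at P0, above the members of the same library in each of the 4. Cycling members were deeper than non-cycling members in the tested P0 libraries, with medians of 6369 to 9412 and 5962.5 to 6694 UMIs, and the step on follicle genes left out deeper cells. The part of free RNA and of that step in the P0 shares was not tested.

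Cycling members were then set against non-cycling members of the same library, over the 12 tested libraries. Of 10408 genes 2182 (21.0%) passed edgeR's quasi-likelihood test with library as a block, 1066 higher (10.2%) and 1116 lower (10.7%) in cycling cells. Without P0 Grhl3-/- replicate 2, 1198 were higher and 699 lower. The S and G2/M lists define the classes and are no finding. Outside them, the mitotic kinase Aurkb averaged 71.3 CPM in cycling and 4.24 in non-cycling members (log2 difference 4.24 ± 0.15, adjusted p = 1.9e-16, higher in 12 of 12 libraries). The rule that named Aurkb required the same direction in all 12. Cdkn2c, the CDK inhibitor p18, was also higher in cycling cells, at 24.7 and 3.87 (2.95 ± 0.23, 2.7e-10, 12 of 12). Of the 16 chromatin and RNA-binding proteins 13 were higher (median 0.87, against -0.05 over all genes), 12 of them chromatin proteins and 1 the RNA-binding protein Igf2bp3.

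Of 17 cell cycle control genes, a list of inhibitors, D cyclins and the promoters of division Ccne1, Myc and Mycn, 4 were higher in cycling members, Cdkn2c, Cdkn1b, Ccne1 and Trp53, and 4 lower, Btg2, Cdkn1c, Btg1 and Cdkn1a. Mxd4, Kdm5b and Gadd45g were lower. Mxd4, a MYC antagonist, averaged 37.3 CPM in cycling and 63.0 in non-cycling members (log2 difference -1.01 ± 0.12, adjusted p = 6.3e-07), Kdm5b, a histone H3K4 demethylase, 50.6 and 78.4 (-0.73 ± 0.08, 1.0e-07), and Gadd45g, a stress-induced growth arrest gene, 67.1 and 110 (-0.81 ± 0.12, 1.3e-05). Each was lower in cycling cells in 12 of 12 libraries, which the rule for naming these 3 genes required. Of 18 early differentiation genes 13 were lower and none higher (median -0.39). Sbsn, a secreted protein of differentiating keratinocytes, averaged 57.4 and 126 (-0.91 ± 0.18, 0.00058). None of the 10 hemidesmosome genes passed the test (median 0.0042). Itga6 averaged 176 CPM in cycling and 163 in non-cycling members (-0.05 ± 0.07, adjusted p = 0.72). Its plain means follow the P0 libraries, at 374 and 309, while at E14.5 they were 58.1 and 72.0 and at E16.5 96.8 and 107, and Itga6 was higher in cycling cells in 3 of 12 libraries. Fibroblast, red cell and leukocyte genes were lower in cycling cells as well, 6 of 7, 4 of 6 and 3 of 4, while 2 of 4 melanocyte genes, Pmel and Dct, were higher, and their part in these differences was not tested.

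The promoter of Cdc20, which activates the anaphase-promoting complex and is one of the G2/M genes, is shown because that list is lower at P0 than at E16.5 and higher in P0 Grhl3-/- than in WT members (chr4:118437344-118437593, minus strand, GRCm38.p6, RefSeq). Capitals mark CCAAT and TTTGAA, letters found before many G2/M genes, searched on both strands.
Cdc20: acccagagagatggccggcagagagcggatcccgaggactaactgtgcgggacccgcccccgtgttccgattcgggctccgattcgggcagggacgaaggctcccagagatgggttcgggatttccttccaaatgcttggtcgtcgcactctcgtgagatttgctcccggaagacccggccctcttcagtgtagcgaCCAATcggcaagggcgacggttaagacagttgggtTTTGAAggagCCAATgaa
CCAAT begins 53 and 8 bases before the start and TTTGAA 18 bases before it. CCAAT was found in 37.4% and TTTGAA in 17.9% of the 32851 promoter windows, so neither is rare.

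In the mutants the targeted gene was read first. Grhl3 was at 20.1 and 14.1 CPM in WT and 9.21 and 8.52 in Grhl3-/- members at E14.5, at 6.45 and 6.86 against 7.36 and 5.10 at E16.5, and at 3.63 and 2.11 against 1.32 and 4.51 at P0. No age passed the test (adjusted p = 1.0, 0.95 and 0.80), but with the rule read on thinned cells Grhl3 was lower in Grhl3-/- members at P0 (-0.89, adjusted p = 0.047). The deleted part of the gene is not given in the sources used here and the method reads the 3′ end, so these UMIs do not check the genotype labels.

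At E14.5 the genotypes differed at 1 of 10703 genes (0.00934%), with 392 at an unadjusted p under 0.05. The gene was Gm13305, at 0.542 and 0 CPM in WT and 28.1 and 27.7 in Grhl3-/- members. It is one of a group of near-identical copies, its background was 0.122 and 22.6, and without E14.5 Grhl3-/- replicate 2 its adjusted p was 0.089. No gene of any list passed at this age.

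At E16.5 67 genes (0.626%) passed, 40 higher (0.374%) and 27 lower (0.252%) in Grhl3-/- members, with 1232 at an unadjusted p under 0.05. The number rested on single libraries. It was 3 without E16.5 WT replicate 1, 7 without E16.5 WT replicate 2, 22 without E16.5 Grhl3-/- replicate 1 and 45 without E16.5 Grhl3-/- replicate 2. Of 14 wound and barrier stress genes 3, Sprr2a3, Sprr1a and Krt6a, were higher and none lower (median 2.99, against -0.01 over all genes). That list holds stress keratins and small proline-rich genes and also S100a8, S100a9, Ly6a, Tpm2, Gjb2 and Stfa3. Markers of other epithelial cells were higher in the same members: the follicle genes Barx2 (1.34 ± 0.20, adjusted p = 0.013) and Krt79 (3.33 ± 0.68, adjusted p = 0.041), 2 of 4 follicle genes tested, and the periderm gene Krt19 (adjusted p = 0.029), 1 of 3. Their part in the change was not tested. Krt6a, a keratin of activated keratinocytes and of the follicle's companion layer, had 421 UMIs in Grhl3-/- and 2 in WT members, a ratio of 708 (counting interval 195 to 5864). These UMIs lay in 7 of 211 and 14 of 202 cells, 1 cell holding 178 of the 199 UMIs of Grhl3-/- replicate 1, against 1 of 678 and 1 of 894 cells in WT. Krt6a and Krt6b are near-identical and share reads. The log2 change of Krt6a was 9.13 with all libraries (edgeR adjusted p = 0.013). It was 9.27 without E16.5 WT replicate 1 and 8.92 without E16.5 WT replicate 2, and its call was lost in both. The call was also lost with 3 of 6 markers required (6.72, adjusted p = 0.33) and with the rule read on thinned cells (7.19, 0.26). With mitochondrial UMIs limited to 5% the change was 8.35 (0.10).

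Aqp3 was among the genes higher at E16.5 and dissociation stress genes among those lower. Aqp3, a glycerol channel of basal cells, was at 155 and 197 CPM in WT and 283 and 339 in Grhl3-/- members (log2 change 0.79 ± 0.13, adjusted p = 0.013), far above a background of 5.72 and 2.69. Its adjusted p was 0.26 without E16.5 WT replicate 1 and 0.092 without E16.5 Grhl3-/- replicate 2. The Aqp3 change was 0.26 (adjusted p = 0.80) in non-cycling members against 0.79 over all members. With each cell counted once per gene it was 0.07 (edgeR adjusted p = 0.86). Of 16 dissociation stress genes, which cells switch on while tissue is taken apart, 6 were lower and none higher (median -0.47). Jun was at 1071 and 1067 in WT and 592 and 585 in Grhl3-/- (-0.89 ± 0.14, 0.013), while its background went from 745 to 528. With 1 library left out in turn the adjusted p for Jun was 0.20 without E16.5 WT replicate 1, 0.11 without E16.5 WT replicate 2, 0.086 without E16.5 Grhl3-/- replicate 1 and 0.075 without E16.5 Grhl3-/- replicate 2, while the difference itself stayed between -0.90 and -0.88. Lor and Hrnr were lower with every library left out in turn, Lor at 156 and 209 against 20.04 and 21.4 (-3.17 ± 0.21, 3.0e-06). Their WT values lay below background, which itself went from 265 to 5.66 for Lor. No gene of the cell cycle, hemidesmosome, Wnt or Notch lists passed.

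At P0 2407 genes (22.5%) passed, 1277 higher (11.9%) and 1130 lower (10.6%) in Grhl3-/- members. Without P0 WT replicate 1 the number was 1353, and among non-cycling members alone 1163. Melanocyte genes summed to 1102 and 744 CPM in WT and 321 and 330.5 in Grhl3-/- members, and Schwann cell genes to 48.5 and 34.5 and to 10.8 and 16.1. Hair follicle genes summed to 886 and 731 in WT and to 302.5 and 626.5 in Grhl3-/- members, although none of the 4 tested was called. Of 16 dissociation stress genes 11 were higher and none lower (median 0.71). The part of such RNA and of handling in the differences was not tested.

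Of 10 hemidesmosome and integrin genes 5 were lower in the mutant, Dst, Itga6, Itgb4, Plec and Col17a1, and 1, Cd151, was higher (median -0.42, against -0.01 over all genes). The calls of Itgb4 and Col17a1 were the less stable. Itgb4 differed by -0.43 ± 0.13 (adjusted p = 0.025), with an adjusted p of 0.11 by DESeq2, 0.23 without P0 WT replicate 1, 0.064 without P0 Grhl3-/- replicate 1 and 0.069 without P0 Grhl3-/- replicate 2. Col17a1 differed by -0.55 ± 0.13 (adjusted p = 0.0080), with an adjusted p of 0.089 without P0 WT replicate 1 (-0.43) and 0.060 without P0 Grhl3-/- replicate 2 (-0.34). In non-cycling members the Col17a1 difference was as large, at -0.55 (adjusted p = 0.059). Of 14 basement membrane genes 2 were lower and 1 higher (median -0.32), and of 18 junction genes likewise 2 and 1 (median -0.14), shares near those over all genes. Dst (chr1:33908225-34308661, plus strand) was at 838 and 974 CPM in WT and at 315 and 238 in Grhl3-/- members (log2 change -1.66 ± 0.14, adjusted p = 5.5e-06). Itga6 was at 432 and 453 against 215 and 229 (-0.96 ± 0.13, 0.00015). For both the genotypes did not overlap, and the members of both genotypes stayed above the background, which fell from 306 to 142 for Dst and from 92.3 to 69.0 for Itga6. Both were found in most cells of both genotypes, Dst in 182 of 212 and 148 of 163 WT and in 517 of 604 and 174 of 210 Grhl3-/- members. The number of members with a UMI has a ceiling, which limits that measure for genes found in most members. With each cell counted once per gene, an alternative chosen after the data were seen, these calls were lost. The difference was then -0.14 for Dst (edgeR adjusted p = 0.37), -0.12 for Itga6 (0.49) and -0.28 for Trp63 (0.051). How the summed differences are spread over cells was not tested. Trp63 was at 350 and 444 against 202 and 151 (-1.11 ± 0.16, 0.00034), while its background went from 144 to 79.6. The version 1 WT library stood at 171 for Dst, 105 for Itga6 and 176 for Trp63, below both WT libraries for all 3 genes and below both Grhl3-/- libraries for Dst and Itga6.

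**Figure D3:**
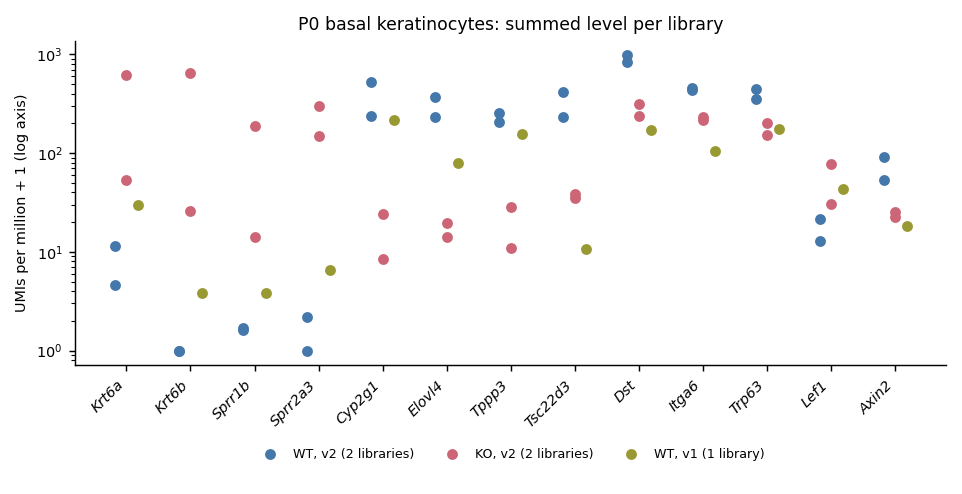
CPM (plus 1, log axis) of 13 genes in P0 members of the WT, Grhl3-/- and version 1 WT libraries. Dst, Itga6 and Trp63 are lower in both Grhl3-/- libraries than in both version 2 WT libraries, and the version 1 library, at 171, 105 and 176 CPM, lies below both WT libraries for these 3 genes and below both Grhl3-/- libraries for Dst and Itga6.

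Of the same 14 wound and barrier stress genes 11 were higher in the mutant and none lower (median 3.81). They were the keratins Krt6a and Krt6b, the small proline-rich genes Sprr1b, Sprr2a3 and Sprr2d, and also S100a8, S100a9, Tpm2, Gjb2, Ly6a and Stfa3, which belong to other families. Sprr2a3, a cornified envelope precursor, had 1379 UMIs in Grhl3-/- and 2 in WT members, a ratio of 291 (counting interval 80.4 to 2404, adjusted p = 6.2e-06). It was found in 81 of 604 and 48 of 210 Grhl3-/- members, against 2 of 212 and 0 of 163 in WT, where a count of 0 allows up to 1.84% of cells with a UMI, which does not limit the share that expresses the gene. The share of background cells with a UMI was 2.81 and 3.67% in Grhl3-/-. Sprr2a copies share reads and are uncertain one by one. Krt6b had 1435 UMIs in Grhl3-/- and 0 in WT members, at least 202-fold higher against a floor of 3 UMIs over the group. Of the 1304 Krt6b UMIs in Grhl3-/- replicate 2, 1 cell held 1133. Its adjusted p was 0.014 with all libraries, 0.10 without P0 WT replicate 1 and 0.076 without P0 WT replicate 2. Stfa3 was widespread instead, in 584 of 604 and 197 of 210 Grhl3-/- members and in 169 of 212 and 119 of 163 WT members, at 5432 and 4256 against 1009 and 934 CPM (2.36 ± 0.31, 0.00013).

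Sprr1b had 443 UMIs in Grhl3-/- and 2 in WT members, a ratio of 93.4 (25.7 to 774), with 247 of the 373 UMIs of Grhl3-/- replicate 2 in 1 cell and an adjusted p of 0.0040 that became 0.058 without P0 WT replicate 1. Its promoter (chr3:92438780-92439029, minus strand, GRCm38.p6, RefSeq) is shown because small proline-rich genes are among those higher in the mutant. Capitals mark TGANTCA, a loose form of the letters that AP-1 factors such as Jun and Fos bind. Its middle base was left free, and both strands were searched. The marked stretch reads TGAATCA, which need not be such a site.
Sprr1b: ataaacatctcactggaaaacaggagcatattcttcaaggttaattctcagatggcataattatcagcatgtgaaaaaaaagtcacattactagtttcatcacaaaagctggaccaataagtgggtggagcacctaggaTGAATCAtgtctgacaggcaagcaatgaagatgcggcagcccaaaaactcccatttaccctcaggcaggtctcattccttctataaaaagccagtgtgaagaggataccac
The match begins 111 bases before the start, and 7.81% of the promoter windows hold these letters.

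Of 20 Wnt ligands and receptors 3 were higher and 1 lower, and of 19 effectors and inhibitors 1 was higher and 4 lower. Over all genes 11.9% were higher and 10.6% lower, so that the Wnt lists as a whole were near the background. Lef1 was at 20.6 and 11.95 CPM in WT and at 76.3 and 29.6 in Grhl3-/- members (log2 change 1.84 ± 0.37, adjusted p = 0.0031), with a background of 29.3 and 38.5. Only Grhl3-/- replicate 1 thus stood above it. The version 1 WT library held 226 Lef1 UMIs of 5361889. Its share lay above that of Grhl3-/- replicate 2, at 59 of 1993649, and below that of replicate 1, at 404 of 5291988. Axin2 was lower in Grhl3-/- members, unlike Lef1, at 90.9 and 52.0 against 21.5 and 24.1 (-1.63 ± 0.22, 0.00018), and so was its background, from 56.7 to 25.04. Cdkn1c, the cell-cycle inhibitor p57, was at 14.54 and 4.92 against 52.2 and 45.1 (2.34 ± 0.46, 0.0025), with a background of 8.64 in WT and 12.01 in Grhl3-/-. WT replicate 2 thus lay below background. It was found in 169 of 604 and 53 of 210 Grhl3-/- members and 23 of 212 and 7 of 163 WT members.

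Of 20 G2/M genes 15 were higher and none lower in P0 Grhl3-/- members, and of 20 S genes 13 were higher and 1, Ccne2, lower (medians 1.02 and 1.15). S genes summed to 423 and 322 CPM in tested WT, 619 and 964 in Grhl3-/- and 1165 in version 1 WT members. The version 1 library thus lay above both mutant libraries for S genes. G2/M genes summed to 1194 and 850, to 1553 and 2065 and to 1003 in the same order. Ccnb2, a mitotic cyclin, was at 50.9 and 50.6 CPM in WT and at 96.4 and 155 in Grhl3-/- (log2 change 1.31 ± 0.20, adjusted p = 0.00047), against a background of 143 and 146. Among non-cycling members the Ccnb2 difference was 0.93 (adjusted p = 0.13), but those cells were chosen for few G2/M genes, of which Ccnb2 is one, so that this value is not a check. Of 15 hypoxia and glycolysis genes 13 were higher and 1, Hk2, was lower (median 1.12). The 13 included glycolytic enzymes and the hypoxia-response genes Vegfa, Bnip3, Ndrg1 and Ero1l. Tpi1, triose phosphate isomerase, was at 189 and 216 against 564 and 736 (1.72 ± 0.15, 7.0e-06), and its background went from 206 to 560. Of 12 glucocorticoid-responsive genes 6 were lower and 1 higher. Tsc22d3 was at 231 and 411 against 37.6 and 34.1 (-3.09 ± 0.23, 4.1e-06), its background went from 229 to 80.6, and the version 1 WT library stood at 9.70. Tpi1 and Tsc22d3 thus differed in the same direction in the background cells, which at P0 may include keratinocytes.

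**Figure D4:**
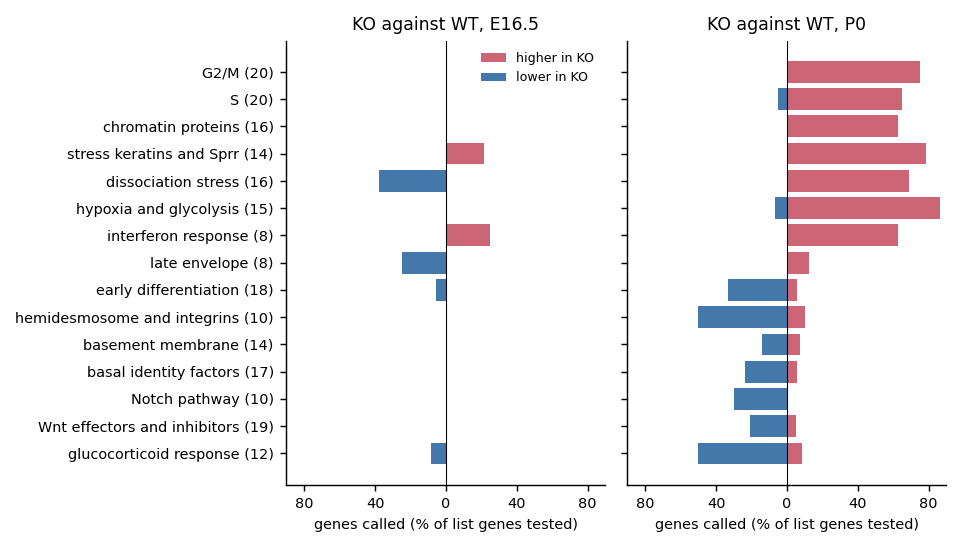
Percentage of the tested genes of 15 lists called higher or lower in Grhl3-/- members at E16.5 and at P0. At P0 15 of 20 G2/M genes and 13 of 15 hypoxia and glycolysis genes were higher, and at E16.5 none of either. The list labelled stress keratins and Sprr also holds genes of other families, and that labelled chromatin proteins holds 3 RNA-binding proteins.

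Whether the genotype difference itself changed from E16.5 to P0 was tested as an interaction, in which 970 genes (9.06%) passed, 608 (5.68%) with a higher and 362 (3.38%) with a lower difference at P0. The number was 451 to 632 without an E16.5 library and 604 without P0 WT replicate 1. All 11 called of 16 dissociation stress genes had a higher difference at P0 (median 1.09, against 0.01 over all genes). Atf3, a stress-induced transcription factor, stood below WT in Grhl3-/- members at E16.5, at 88.8 and 69.5 against 36.4 and 44.4 CPM, and above WT at P0, at 45.4 and 46.4 against 116 and 169 (difference of log2 changes 2.66 ± 0.27, adjusted p = 0.00015). The background of Atf3 moved the same way, from 59.5 to 40.5 at E16.5 and from 15.7 to 44.7 at P0, and the E16.5 Grhl3-/- members lay at it. At E16.5 alone Atf3 differed by -1.18 to -0.81 with any 1 of the 4 libraries left out, and its call was lost each time. In non-cycling members it differed by -0.42 (edgeR adjusted p = 0.65), against -1.01 over all members. With mitochondrial UMIs limited to 5% it differed by -0.96 (edgeR adjusted p = 0.074). Odc1, the first enzyme of polyamine synthesis, was at 135 and 142 against 106 and 75.0 at E16.5 and at 27.9 and 31.6 against 139 and 109 at P0 (2.77 ± 0.25, 0.00015). The P0 background of Odc1 went from 48.4 to 146, above the members of the same genotype. The genotype difference of Dst changed by -1.22 ± 0.20 (adjusted p = 0.0022).

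**Figure D5:**
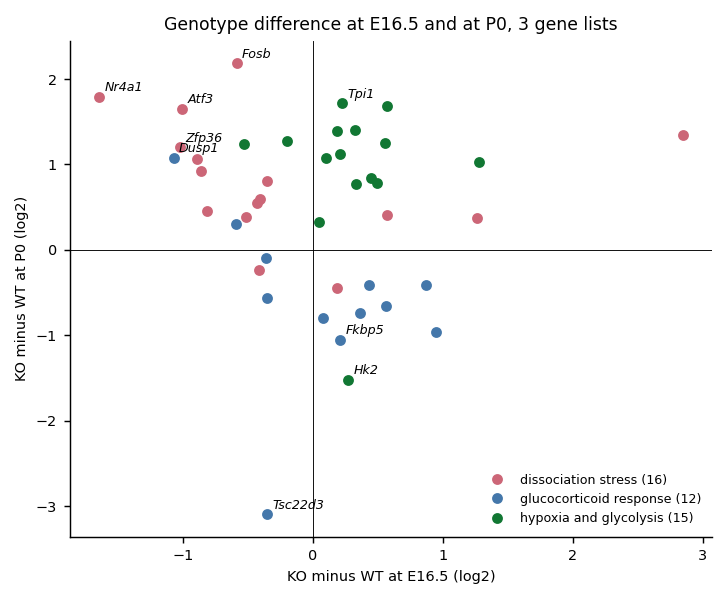
Log2 difference of Grhl3-/- from WT members at E16.5 (horizontal) and P0 (vertical) for dissociation stress, glucocorticoid-responsive and hypoxia and glycolysis genes, 1 point per gene. Atf3 lies at -1.01 and 1.65, lower in the mutant at E16.5 and higher at P0.

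The P0 difference in basal members was finally set against that in spinous cells of the same libraries. The interaction passed at 425 of 11420 genes (3.72%), 276 (2.42%) with a higher and 149 (1.30%) with a lower difference in basal cells. It was 221 without P0 WT replicate 1 and 194 without P0 WT replicate 2. Markers of other cells moved with this contrast, the leukocyte genes Fcer1g, Cd207 and Tyrobp (3 of 6) and the melanocyte gene Dct (1 of 4) with a lower difference in basal cells, and so did 5 of 16 dissociation stress genes, with a higher one. Their part was not tested. Spink5, a protease inhibitor of the barrier, was at 3.03 and 2.11 CPM in WT and 3.21 and 85.8 in Grhl3-/- basal members, and at 283 and 252 and at 21.4 and 122 in spinous cells (5.72 ± 0.58, adjusted p = 2.3e-05). The WT basal values of Spink5 lay below a background of 19.3. Mmp14, a membrane-bound matrix protease, was level in basal members, at 91.5 and 95.6 against 89.0 and 86.8, while spinous cells held 7.01 and 6.05 in WT and 33.4 and 19.04 in Grhl3-/- (-2.05 ± 0.31, 0.00093). None of the G2/M, S or hemidesmosome genes passed.

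The version 1 WT library gives a further view of the P0 difference. At the 1277 genes higher in Grhl3-/-, it lay below both mutant libraries at 36.2%, against 37.5% of all 10703 genes. At the 1130 lower genes it lay above both at 43.8%, against 42.9% of all genes. It was nearer to the mutant mean than to the WT mean at 77.45% of the higher and 73.4% of the lower genes, and at 63.4% of all. Chemistry, animal and preparation cannot be told apart in it.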

How the data were processed

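RNA of single cells was captured on droplets (10x Genomics Chromium) from 13 libraries. UMI counts per gene and cell were deposited by the authors as filtered matrices, whole numbers without normalization. The submitters' processing notes name Cell Ranger 1.3.1, Seurat and mm10, whereas the study's methods name another Cell Ranger release. The notes on the version 1 library carry the version 2 protocol.

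The choice of cells, gene lists and comparisons was made with earlier results of these data known. Mitochondrial UMIs were limited to 10%, and genes per cell to 600 to 4800 (embryos) or 900 to 7700 (P0). Doublets were scored with Scrublet in scanpy 1.11.5, kept, and left out as an alternative. Counts were summed over members per library and tested with edgeR 4.0.16 (TMM scaling, filterByExpr, quasi-likelihood F-test, 6 group means) in R 4.3.3, with Benjamini-Hochberg adjustment over all genes tested and a threshold of 0.05. Levels are CPM of the summed members. Summed libraries held at least 1422449 UMIs. Cycling shares were compared by exact permutation of libraries within strata. Spinous cells and cycling classes were fitted with library as a block. Named genes were up to 6 of each list per comparison, and the 5 largest changes each way among called genes with average log2 CPM of at least 5 and groups that did not overlap. For cycling against non-cycling members the latter were required to have the same direction in every tested library instead. Intervals cover counting error only.

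On simulated counts for the P0 comparison, over 10318 genes, 52 of 99 genes changed 2-fold and 79 of 99 changed 4-fold were recovered, and 9 unchanged genes were called. Deviations of libraries with the same replicate number correlated at -0.045, -0.0369 and -0.0329 at the 3 ages, and the main fits did not pair them. With 2 libraries per group these values do not decide whether the numbers pair libraries by litter, which the labels do not give. Alternatives were DESeq2 1.42.0, RLE scaling, no filter on low counts, thinned sums, non-cycling members, other limits in the rule, the rule on thinned cells, a fit on 4 libraries, a replicate block and each library left out. Counting each cell once per gene and placing the version 1 library were chosen after seeing the data. Annotations are GENCODE vM21 on GRCm38 and promoters are RefSeq.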

Additional observations from a re-analysis of the deposited data

Results flagged for a closer look

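The genotype difference changed from E16.5 to P0 at 970 genes by the interaction test of edgeR. Among the genes named there the difference of log2 changes was 3.83 for Igfbp5, 3.085 for Cnih2, 2.777 for Gsta4, 2.772 for Fosb and 2.769 for Odc1. It was -4.183 for Tppp3, -3.855 for Scd1, -3.09 for Elovl4, -2.741 for Tsc22d3 and -2.509 for Apoe. Several of these calls were lost under other settings. Igfbp5 fell to 1.826 (adjusted p = 0.10) without P0 Grhl3-/- replicate 1 and lost its call in 6 settings, Gsta4 in 7, DESeq2 among them (2.711, adjusted p = 0.054), Cnih2 in 3 (2.058, adjusted p = 0.094, without P0 Grhl3-/- replicate 1), Scd1 in 4 (-3.065, adjusted p = 0.15, without E16.5 Grhl3-/- replicate 1) and Elovl4 in 6 (-0.5557, adjusted p = 0.78, with the rule read on thinned cells). Apoe, Fosb and Tsc22d3 lay below the background in all 4 E16.5 libraries, and Gsta4, Cnih2 and Odc1 in all 4 P0 libraries, so that their levels there are not read as expression in basal cells. The background cells may use these genes themselves, so that the comparison does not decide whether basal cells express them.

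The P0 difference was unlike between basal and spinous cells at 425 genes by the same kind of test. The difference of log2 changes, basal minus spinous, was 8.021 for Gm94, 5.718 for Spink5, 4.767 for Sprr1b, 3.878 for 2610528A11Rik and 3.656 for Dkkl1. It was -2.483 for Cdkn1c, -2.203 for Pdgfc, -2.172 for Elovl4, -2.045 for Mmp14 and -2.019 for Tpm2. Gm94 lost its call without P0 Grhl3-/- replicate 2 (4.357, adjusted p = 0.39) and by DESeq2, and Dkkl1 in 4 settings (2.434, adjusted p = 0.21, without P0 WT replicate 1). Without P0 WT replicate 1 the calls of 2610528A11Rik (adjusted p = 0.067), Cdkn1c (adjusted p = 0.25) and Pdgfc (adjusted p = 0.052) were lost too. Pdgfc also lost its call without P0 WT replicate 2 and without P0 Grhl3-/- replicate 1 (-1.512, adjusted p = 0.27), and Elovl4 by DESeq2 and with mitochondrial UMIs limited to 5% (-1.12, adjusted p = 0.49).

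The cycling share differed between genotypes by 21.21 percentage points more at P0 than at E14.5. Among the tested libraries both P0 Grhl3-/- libraries lay above both WT libraries and both E14.5 Grhl3-/- libraries below both WT libraries. The margins were small: 28.6% in P0 Grhl3-/- replicate 1 against 27.4% in WT replicate 1, and 73.5% in E14.5 Grhl3-/- replicate 1 against 73.8% in WT replicate 1. The untested version 1 WT library, at 38.0%, lay above P0 Grhl3-/- replicate 1, and with 2 genes sufficing for a call the P0 order of the replicates 1 turned. At E14.5 it turned as well, with Grhl3-/- replicate 1 at 85.3% and WT replicate 1 at 84.9% when 2 genes sufficed, 62.1 and 58.7% when 4 were required, 85.2 and 84.3% with 3000 UMIs per cell, and 74.4 and 73.8% with 3 of 6 marker genes. With 4 genes required Grhl3-/- replicate 1 also lay above WT replicate 2, at 62.0%. The exact permutation p was 0.0556, the smallest that the 36 arrangements allow.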

How the results depend on the processing

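The number of genes called between genotypes at P0 was 2407, and 1163 among non-cycling members, 4094 with the rule read on thinned cells, 1187 in a fit on the 4 P0 libraries, 1436 with each cell counted once per gene and 1353 to 2065 with 1 library left out. At E16.5 it was 67, and 350 with no filter, 18 with thinned sums, 23 in non-cycling members, 42 with the rule on thinned cells, 158 in a fit on 4 libraries and 3 to 45 with 1 library left out. At E14.5 it was 1, and 6 with DESeq2, 50 with no filter, 0 in non-cycling members (412 at an unadjusted p under 0.05 in edgeR), 3 with each cell counted once, 7 in a fit on 4 libraries and 1 to 6 with 1 library left out. From E14.5 to E16.5 it was 1729, and 1041 with DESeq2, 948 with thinned sums, 488 in non-cycling members and 677 to 999 with 1 library left out. From E16.5 to P0 it was 5461, and 3611 in non-cycling members. The interaction of genotype and age gave 970, and 1729 with no filter, 547 with thinned sums, 292 in non-cycling members and 451 to 969 with 1 library left out. The contrast of basal and spinous cells gave 425, and 185 with DESeq2, 846 with no filter and 194 to 498 with 1 library left out. The causes were not tested, except that fewer cells or libraries entered some fits. Signs turned for Cdc20 at P0 in non-cycling members (-0.23), which were chosen for few G2/M genes such as Cdc20. With each cell counted once they turned for Scd1 (0.10) and Col17a1 (0.037) at P0 and for the interaction of Dst (0.079). None of them passed there by edgeR (adjusted p = 0.90, 0.86 and 0.81). Dst and Col17a1 had a UMI in most P0 members, which limits that measure.

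With the replicate block the counts were 2143 at P0, 66 at E16.5, 1 at E14.5 and 792 for the interaction, and the cycling share differed by 5.59 points (exact permutation p = 0.4375). Whether the numbers pair the libraries by litter is not given by the labels. With 163 to 894 members per library and 2 libraries per group, genes at a few UMIs rest on single cells, and 0 of 163 cells allows up to 1.84% of cells with a UMI.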
